A study of Mus musculus with 9 samples.

Results

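SVR cells are mouse endothelial cells that were immortalised with a viral large T antigen, transformed with activated Ras, and form angiosarcomas, malignant tumors of blood vessels, when grown in mice. Their baseline transcriptome was read from the 3 arrays labelled sham, 0 h, which were chosen by that label alone from the 9 arrays of the series. The series was made to study propranolol, a blocker of beta-adrenergic receptors, and the other 6 arrays, of SVR cells given 50 µM propranolol for 4 or 24 h by the labels, gave no value reported here. All groups were the same cell line, grown to confluence in Dulbecco's medium with fetal bovine serum and antibiotics. The labels set the sham cells at 0 h, whereas the methods of the study give sham cells the same treatment time as the drug, and the labels do not say what the sham treatment was. RNA was pooled over 3 biological replicates and then run on 3 arrays, so the spread between the arrays may be technical, and their number limits the precision of every value.

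On these bead arrays a probe is an oligonucleotide carried by many beads, and its signal is the mean brightness of those beads in arbitrary intensity units, without normalization. A gene is called detected where at least 1 of its probes had a detection p under 0.05, against the negative control beads, on all 3 sham arrays. By this rule 7327 of 16593 named genes were detected (44.2%), 1371 were detected on 1 or 2 of the arrays, and 7895 were detected on none. The dimmest detected probe of each array lay at 104.4, 89.7 and 102.4 units for replicates 1, 2 and 3, and these values are called the detection limits. Replicate 2 was dimmer on average, with a mean signal of 306.5 units against 379.1 and 387.7, and its limit was also the lowest of the 3. Many detected genes were close to the limit, and 4402 named genes (26.5%) reached 2 times the limit on all 3 arrays. Each gene was represented by its brightest probe. Of 2905 detected genes with several probes, 1166 had a probe detected on no array, and not every such case is named below. Probes differ in how brightly they bind, so an order of brightness is not an order of RNA abundance, and a gene whose probes stayed at the limit is called not detected rather than not expressed.

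**Figure D1:**
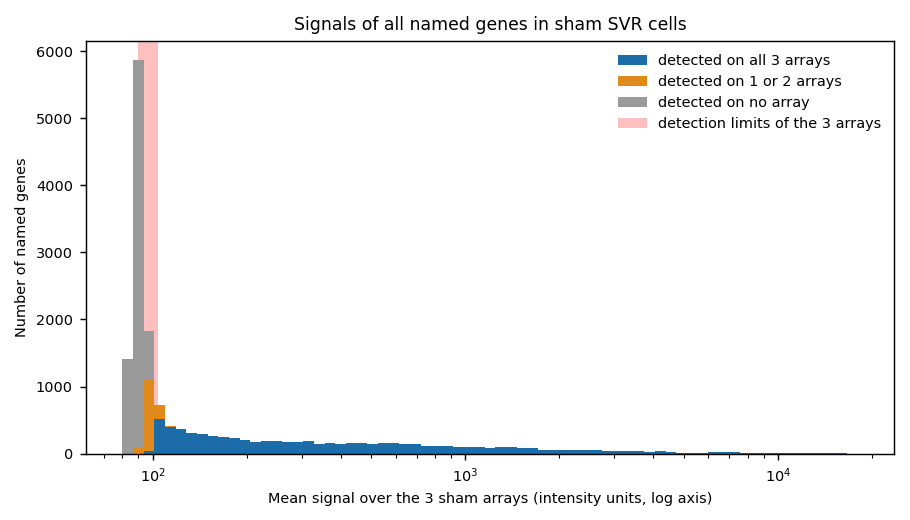
The plot gives the number of named genes by their mean signal over the 3 sham arrays (horizontal log axis, intensity units), coloured by the number of arrays on which the gene was detected, with the detection limits as a pale band. The genes detected on no array form a narrow peak between 81.0 and 98.2 units, and the detected genes extend from its edge to 16977 units with a median of 288.6 units.

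Endothelial cells line blood vessels and are recognised by junction proteins such as VE-cadherin and CD31, by receptors for vascular endothelial growth factor (VEGF) and the angiopoietins, and by transcription factors of the ETS, GATA, SOX and KLF groups. Growth factors bind receptor tyrosine kinases at the cell surface, which pass the signal through adaptor proteins to Ras, a small GTPase that is switched on by exchange factors and off by GTPase activating proteins. Active Ras signals through the RAF, MEK and ERK kinases and through PI3K, and ERK induces early response genes together with its own inhibitors.

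The brightest named gene was Tuba1b, an alpha-tubulin, with 17982, 14575 and 18373 units on sham replicates 1, 2 and 3. It was followed by the ribosomal proteins Rplp1, Rps2 and Rpl9 at means of 16267, 15879.6 and 15775 units, and by Tubb5, a beta-tubulin, at 15580.0 units. The upper end of the order was thus made of genes that most growing cells use. Ribosomal proteins took 13 of the 30 brightest positions and 36 of the 100 brightest. Other members of the first 30 were the histone H2A genes H2ac24 and H2ac20, Actb (beta-actin), the glycolytic enzymes Gapdh and Pkm, the ATP synthase subunits Atp5b and Atp5g3, the elongation factor subunit Eef1g, the nucleoside diphosphate kinase Nme2, the ubiquitin copy Ubb-ps, the ferritin heavy chain Fth1, the cytokine Mif, the calcium-binding protein S100a11, the tetraspanin Cd63 and the glutathione peroxidase Gpx1. Near-identical copies of the tubulin, histone, ubiquitin and ribosomal protein genes can share probe sequence, so the symbols of those genes are uncertain. The 100 brightest genes held 16.8% of the summed signal of all named genes, and the lowest of them was at 7866 units. No background was subtracted here, so that sum includes the genes detected on no array, which had a median of 89.1 units. The limit of reading brightness as abundance is shown by 2 housekeeping genes chosen after their values were seen: Eef1a1, an elongation factor of protein synthesis, was at 121, 100.1 and 103 units and Pgk1, a glycolytic enzyme, at 114, 96.1 and 117 units, just above the limit.

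Of the 5 genes used to check that the cells are endothelial, Pecam1, Cdh5, Flt1 and Tek were detected and Kdr was not. Pecam1, which encodes the junction protein CD31, had signals of 1519, 1164 and 1648 units on replicates 1, 2 and 3. Cdh5, the VE-cadherin of endothelial junctions, had 573, 545 and 618 units. Both were at 5 or more times the limit on every array, and their lowest ratios to it were 12.98 for Pecam1 and 5.49 for Cdh5. Flt1, the VEGF receptor 1, had 233, 167 and 239.6 units with its brighter probe, while its other probe was detected on no array. Tek, the angiopoietin receptor Tie2, had 143, 112 and 129 units, which is 1.25 to 1.37 times the limit. Kdr, the main signalling receptor for VEGF, had 105, 85.6 and 94.8 units with its only probe and was detected on 1 of the 3 arrays. The defining markers thus divided into 2 junction proteins well above the limit and 3 receptor tyrosine kinases at or within a few times of it.

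The promoter sequences of 3 of these markers and of 2 bright genes described below were picked, with their signals known, to show a range in the content of CpG, the dinucleotide that is dense in the promoters of most housekeeping genes. Each is the run of 250 bases before the transcription start in the RefSeq annotation of GRCm38.p6, read 5′ to 3′ on the strand of the gene, with every CpG in capitals. The windows are chr4:94739039-94739288 for Tek (plus strand), chr5:75978456-75978705 for Kdr (minus strand), chr5:147726012-147726261 for Flt1 (minus strand), chr1:164115014-164115263 for Selp (plus strand) and chr3:103058035-103058284 for Nras (plus strand).
Tek: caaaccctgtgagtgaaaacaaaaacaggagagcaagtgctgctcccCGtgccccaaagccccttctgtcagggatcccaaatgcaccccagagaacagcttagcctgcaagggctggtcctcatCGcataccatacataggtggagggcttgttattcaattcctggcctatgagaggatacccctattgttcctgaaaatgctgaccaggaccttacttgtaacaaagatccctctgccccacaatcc
Kdr: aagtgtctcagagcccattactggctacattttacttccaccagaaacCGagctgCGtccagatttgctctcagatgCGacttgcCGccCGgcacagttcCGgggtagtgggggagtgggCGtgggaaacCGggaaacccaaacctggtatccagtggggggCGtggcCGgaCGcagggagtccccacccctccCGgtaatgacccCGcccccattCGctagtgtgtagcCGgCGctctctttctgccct
Flt1: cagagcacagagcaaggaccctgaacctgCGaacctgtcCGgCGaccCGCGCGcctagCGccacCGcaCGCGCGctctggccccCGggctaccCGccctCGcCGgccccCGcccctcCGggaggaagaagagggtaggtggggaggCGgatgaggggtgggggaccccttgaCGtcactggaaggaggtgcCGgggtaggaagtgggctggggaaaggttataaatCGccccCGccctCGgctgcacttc
Selp: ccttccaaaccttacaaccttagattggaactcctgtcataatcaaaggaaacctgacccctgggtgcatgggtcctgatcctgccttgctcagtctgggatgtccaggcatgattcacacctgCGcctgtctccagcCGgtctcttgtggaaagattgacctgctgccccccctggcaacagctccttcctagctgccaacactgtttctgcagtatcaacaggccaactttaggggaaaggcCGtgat
Nras: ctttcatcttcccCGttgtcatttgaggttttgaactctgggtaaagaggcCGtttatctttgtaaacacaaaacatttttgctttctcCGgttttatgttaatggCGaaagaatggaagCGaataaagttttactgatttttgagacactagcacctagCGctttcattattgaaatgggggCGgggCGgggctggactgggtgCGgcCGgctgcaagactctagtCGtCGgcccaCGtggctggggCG
The Tek window holds 2 CpG and that of Selp, an adhesion protein with a bright probe, holds 3. The Kdr and Flt1 windows hold 16 and 23, although Kdr was not detected, and the window of the bright Ras gene Nras holds 14. These 5 genes stand for no trend, and over all named genes, described at the end, detection rose with CpG content.

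Most measured genes of the endothelial lists were detected. Of 103 measured genes on the endothelial lists, 69 were detected (67.0%, beside 44.2% of all named genes), and 44 reached 2 times the limit (42.7%, beside 26.5%). Members of all gene lists used here were chosen with earlier results of these data known, so such shares describe the chosen lists only. Of 26 measured junction and surface proteins, 20 were detected. Egfl7, a protein that endothelial cells secrete into the vessel wall, was the brightest of them at 6062, 4811 and 7196 units. Gja1, the gap junction protein connexin 43, had 4747, 3832 and 4824 units, and Emcn, the sialomucin endomucin, had 2763, 2044 and 2753 units. All of these lay at more than 20 times the limit on every array. Esam, an adhesion molecule of endothelial junctions, had 2207, 1980.5 and 2448 units, and Plvap, which forms the diaphragms of fenestrae and caveolae, had 1117, 934 and 1232 units. Robo4, a guidance receptor restricted largely to vessels, had 1211, 1063 and 1298 units with its brightest probe, and its other 2 probes were detected on no array. Jam2, Jam3, Clec14a, Mmrn2, Cd36 and Tjp1 were detected on no array.

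Among genes by which endothelium controls vessel tone and contact with blood, 11 of 17 were detected (64.7%, beside 44.2% of all named genes). Of the 17, 7 reached 2 times the limit (41.2%, beside 26.5%). Nos3, the endothelial nitric oxide synthase, had 4353, 3646 and 4725 units and was detected with all 3 of its probes. Selp, the P-selectin that tethers leukocytes and platelets, had 3059, 2438 and 3292 units, and Vcam1, another adhesion receptor for leukocytes, had 1477, 1212 and 1438 units. Plau, the urokinase plasminogen activator, had 1982, 1585 and 1935 units. These 4 genes were at 13 or more times the limit on every array. Vwf, the von Willebrand factor that Selp accompanies in the storage granules of endothelial cells, was at 92.7, 80.3 and 89.6 units and was detected on no array. The adhesion receptor Icam1 was at 104, 90.1 and 94.5 units and passed the limit on 1 array. Edn1, the vasoconstrictor endothelin, and Ece1, the enzyme that activates it, were detected at means of 344 and 632 units, whereas Ace, F3 (tissue factor), Plat and Ptgs2 were detected on no array. Tfpi, an inhibitor of tissue factor, was detected with 1 of its 3 probes.

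All 6 genes of caveolae, the membrane pits that are abundant in endothelium, were detected. Each was at 2 times the limit or more, as were 26.5% of all named genes. Cavin3 and Cavin2, coat proteins of caveolae, had means of 2980.2 and 2505 units. Cav1, the structural protein of the pits, had 934, 759 and 728 units, and Ehd2, Cavin1 and Cav2 had means of 307, 307 and 252 units. The list was the only one of the 8 endothelial lists with every measured member at this level.

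Of 27 transcription factors that act in endothelium, 20 were detected (74.1%, beside 44.2% of all named genes). Of the 27, 12 reached 2 times the limit (44.4%, beside 26.5%). Klf2, which blood flow induces in vessels, had 2088, 1709 and 2601 units, and Gata2, a factor shared with blood progenitors, had 1352, 996 and 1281 units. The ETS factors Ets1 and Ets2 had means of 1026 and 915 units, and the other probes of Ets1 were at the limit. Hhex and Sox7, factors of early vessel formation, had means of 623 and 534 units. By contrast the ETS factor Erg, often used to mark endothelial nuclei, had 88.9, 82.5 and 111 units with the brighter of its 2 probes and was detected on 1 array. Epas1, the hypoxia-inducible factor 2 alpha, had 97.2, 90.0 and 93.9 units with the brightest of 3 probes and was also detected on 1 array. Etv2, Sox17, Foxc2, Meox2 and Hey1 were detected on no array.

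Markers of the separate branches of the vasculature were detected in part. Of 10 arterial markers 3 were detected, and of these Unc5b, a netrin receptor, was the brightest at 516, 450.4 and 502 units. Bmx, a tyrosine kinase of arteries, and Notch1 were at means of 141 and 120.5 units, and the other probes of Bmx were detected on no array. Efnb2 and Cxcr4 passed the limit on some arrays only. Dll4, Gja4, Gja5, Hey2 and Jag1 were detected on no array. Of 5 venous markers 2 were detected (40.0%). Nr2f2, a nuclear receptor of venous fate, had 148, 116 and 157 units with its brightest probe, and its other probes were detected on no array. Ephb4, an ephrin receptor, had 139, 94.1 and 125 units. Of 7 lymphatic markers 3 were detected (42.9%), so the venous and lymphatic shares were near that of all named genes. Pdpn, the membrane mucin podoplanin, had 662, 514 and 611 units, and Lyve1, a hyaluronan receptor, had 119, 99.4 and 117 units. Flt4, the VEGF receptor 3, had 117, 93.0 and 118 units with its brighter probe, and its other probe was detected on no array. Prox1, the factor that sets lymphatic fate, was at 94.3, 83.2 and 91.4 units and was detected on no array. No complete set of arterial, venous or lymphatic markers was thus detected.

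**Figure D2:**
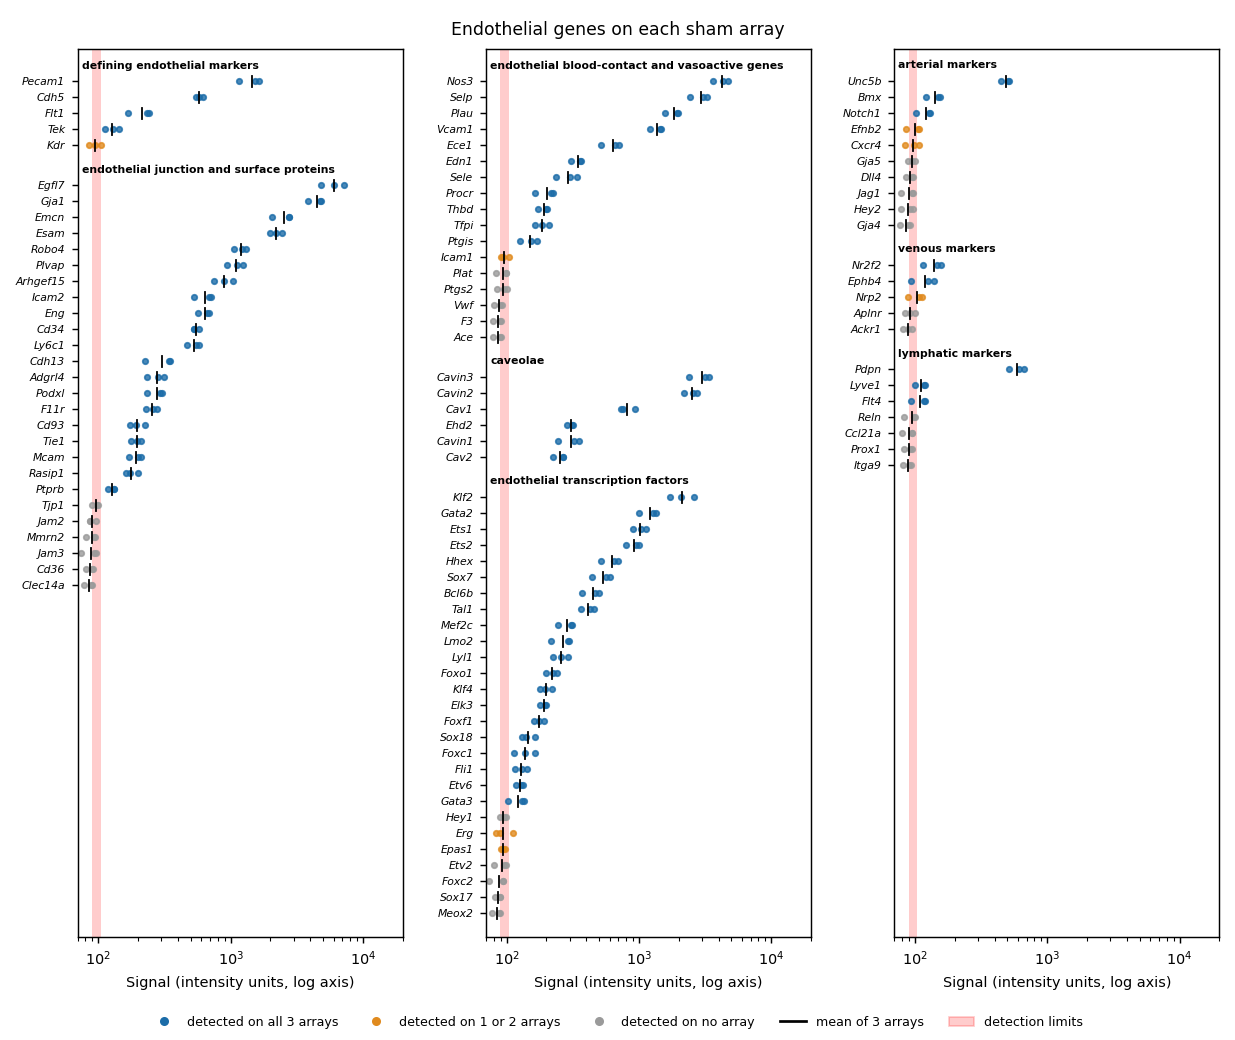
Each point is the signal of a gene on 1 of the 3 sham arrays (horizontal log axis, intensity units), bars are the means of the 3 arrays, and the pale band spans the detection limits. Egfl7, Nos3 and Cavin3 lie far above the band with all 3 points, the caveolae genes all lie above it, and Kdr, Erg, Epas1 and Vwf have their means within or below the band.

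Genes that mark other cell types were mostly not detected. Of 70 measured genes of 7 such lists, 11 were detected (15.7%, beside 44.2% of all named genes) and 2 reached 2 times the limit (beside 26.5% of all named genes). These 2 were the keratins Krt19, at 386, 387 and 484 units, and Krt18, at 414, 273 and 381 units, both structural proteins of simple epithelia. Their epithelial partners were dimmer or at the limit, with Krt8 at 121, 89.5 and 116 units and Cdh1, the E-cadherin, at 102, 98.4 and 105 units. Cldn7, a claudin of tight junctions, was detected at 114, 93.3 and 129 units, while Krt5, Krt14, Cldn3, Cldn4, Esrp1 and Ocln were detected on no array. The summed signal of the 11 epithelial genes measured was 1696, 1428 and 1785 units. This sum includes background, since named genes detected on no array still had means of 81.0 to 98.2 units each. Of 13 genes of the pancreatic islet and exocrine pancreas, Cela1, an elastase, was detected at 217, 175 and 206 units, while Ins2, Gcg, Sst and Pdx1 were detected on no array, and 2 genes of this list were detected without sham replicate 2. Of 12 genes of smooth muscle and pericytes, Acta2 and Kcnj8 were detected, at means of 116 and 102 units, and Tagln, Myh11, Cnn1 and Rgs5 were detected on no array, and 4 genes of this list were detected without sham replicate 1. Of 10 fibroblast genes, Pdgfra was detected at 169.7, 133 and 159.7 units, and Col1a1, Col1a2, Dcn and Lum were detected on no array. Of 9 leukocyte genes, Cd14, a receptor for bacterial lipopolysaccharide, was detected at 126, 111 and 143 units, and Ptprc, Adgre1 and Itgam were detected on no array. Of 5 red cell and platelet genes, Itga2b, Gp9 and Hba-a1 were detected at means of 110.0, 105 and 101 units, and Alas2 and Pf4 on no array. Of 10 genes of other organs none was detected on all 3 arrays.

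Single ligands of the VEGF, platelet-derived growth factor (PDGF), angiopoietin and bone morphogenetic protein (BMP) families gave clear signals, whereas most ligands of the fibroblast growth factor (FGF) and Wnt families stayed at the limit. Over all ligand lists 57 of 169 measured genes were detected (33.7%, beside 44.2% of all named genes). Of the 169, 30 reached 2 times the limit (17.8%, beside 26.5%). Vegfb had 1642, 1442 and 1821 units, and Vegfa, the main driver of vessel growth, had 412, 291 and 339 units. Pgf, the placental growth factor, and Vegfd were nearer the limit at means of 136 and 124 units, and Vegfc was at 96.0, 76.2 and 87.0 units and was detected on no array. Of the PDGF genes, Pdgfa had 1779.9, 1447 and 1835 units, while Pdgfc and Pdgfd were detected on no array. Pdgfb had 234, 190.3 and 248 units with its brighter probe, and its other probe was detected on no array. Angpt2, the angiopoietin that endothelial cells make themselves, had 1579.5, 1262 and 1642 units, and Angpt1, which comes mainly from perivascular cells, was at 98.0, 74.3 and 92.4 units and was detected on no array. Angptl4, which blocks lipoprotein lipase and circulates in blood, had 2814, 2286 and 2937 units.

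Of 22 measured FGF genes, 1 was detected (4.5%, beside 44.2% of all named genes), which was Fgf16 at 129, 104 and 128 units. A further 16, Fgf2 among them, were detected on no array. Without sham replicate 1, 2 FGF genes were detected. The transforming growth factor beta (TGF-beta) and BMP list had 6 of 17 genes detected (35.3%, beside 44.2% of all named genes). Bmp4 was the brightest at 2577, 1882 and 2541 units, followed by Bmp1, a protease that processes collagen, and Tgfb1 at means of 525 and 488 units. Inhba, an activin subunit, Tgfb3 and Tgfb2 had means of 268, 140.4 and 115 units, and Bmp2, Bmp6 and Bmp7 were detected on no array. Of 9 genes of the epidermal growth factor (EGF) family, Hbegf was detected at 1099, 857 and 1040.3 units, Nrg1 at 261, 228 and 279.8 units and Btc at 139.5, 116 and 141 units, whereas Egf, Tgfa and Ereg were detected on no array.

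Some other secreted factors had bright probes, while most cytokines and Wnt ligands did not. Grn, the progranulin precursor, had 4084, 3493 and 4669 units, and the matricellular proteins Ccn2 and Ccn1 had means of 3004 and 1220.4 units. The neurotrophin Bdnf and the macrophage growth factor Csf1 had means of 448 and 382 units, and Hgf, Igf2 and Gas6 were detected on no array. Of 36 chemokines and cytokines 10 were detected and 2 of them reached 2 times the limit. These were Cxcl12 at 878, 740.2 and 905 units and Cxcl1, which attracts neutrophils, at 804, 616 and 851 units, while Il6, Tnf, Il1a and Csf3 were detected on no array. Of 19 Wnt genes, Wnt7b had 821, 574 and 874 units and Wnt5a had 375, 321 and 421 units, and both were detected with each of their 2 probes. The other 17 Wnt genes were not detected on all 3 arrays. Of 5 Notch ligands, Dll1 was detected at 127, 119.7 and 144 units. Among guidance ligands, Efna5 had 1067, 904 and 1113 units, Sema4b had 1388, 1164 and 1402 units and Slit2 had 486, 365 and 468 units. In these lists 5 of 8 ephrins (62.5%) and 10 of 19 semaphorins, netrins and slits (52.6%) were detected, beside 44.2% of all named genes.

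Receptors were detected in 67 of 197 measured genes (34.0%, beside 44.2% of all named genes). Of the 197, 27 reached 2 times the limit (13.7%, beside 26.5%). The VEGF receptors were described above, and their co-receptor Nrp1 had 576, 494 and 539.8 units, while Nrp2 passed the limit on some arrays only at 113, 89.1 and 108 units. Of the measured ligands, 2 of 4 in the PDGF family and 2 of 9 in the EGF family reached 2 times the limit. No measured receptor probe of these families did so on every array. Pdgfra was at 169.7, 133 and 159.7 units and Pdgfrb at 93.9, 92.3 and 104 units, the latter detected on 2 arrays. Egfr, the receptor for Hbegf, was at 99.3, 84.0 and 101 units with the brightest of its 4 probes and was not detected on all 3 arrays, and the other 3 listed members of its family matched no named probe and were not analysed here. Fgfr1 and the decoy receptor Fgfrl1 were detected at means of 117 and 116 units, and Fgfr2, Fgfr3 and Fgfr4 on no array. Signals of different probes cannot be compared as amounts, so these values say which probes rose above the limit and not how much receptor the cells held.

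The receptor tyrosine kinases with the clearest signals were Ryk, a Wnt receptor, at 2027, 1588 and 2171 units and Axl, a receptor for Gas6, at 638, 525 and 651 units. Mertk, a relative of Axl, and Igf2r, the mannose 6-phosphate receptor, had means of 401 and 507 units, and Epha2, an ephrin receptor, had 422, 298 and 433 units. Igf1r, the receptor of insulin-like growth factor 1, had 144, 118 and 154 units, and Met and Tyro3 passed the limit on some arrays only. Insr, the insulin receptor, was detected on no array. Tie1, the orphan partner of Tek, had 211, 176 and 196 units. Ret, Ntrk2, Ntrk3, Alk and Ros1, which act mainly outside vessels, were detected on no array.

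Among the receptors of the TGF-beta family, 6 of 13 were detected (46.2%), a share near the 44.2% of all named genes. Tgfbr2 had 1036, 825 and 1068 units, and Tgfbr1 had 918, 658 and 872 units with 1 of its 4 probes, the others being detected on no array. Eng, the endothelial co-receptor endoglin, had 689, 569 and 660.1 units. Acvrl1 (ALK1), which signals beside Eng in endothelium, and Bmpr2 were detected on no array. Notch4, the Notch receptor of endothelium, had 942, 816 and 1076 units, whereas Notch1 was near the limit and Notch2 and Notch3 were detected on no array. Of 10 measured frizzled and LRP receptors for Wnt, 5 were detected (50.0%, beside 44.2% of all named genes). These were Fzd6, Fzd7, Lrp5, Fzd4 and Fzd2, and all lay below 2 times the limit. Tnfrsf12a, the receptor for the cytokine TWEAK, had the brightest probe of any receptor at 7625, 6625 and 8313 units. Its ligand Tnfsf12 was detected on no array. Of 18 chemokine receptors none was detected on all 3 arrays, and Cxcr4 and Cxcr3 passed the limit on some.

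Of 34 G protein-coupled receptors for lipids, nucleotides and peptides and their partner proteins, 8 were detected. F2r, the thrombin receptor PAR1, had 3615, 2897 and 4119.6 units, and Ramp2, which partners the adrenomedullin receptor, had 2051, 1566 and 2202 units. Calcrl, the receptor that Ramp2 partners, was at 92.4, 82.3 and 93.0 units and was detected on no array. Lpar6, a receptor for lysophosphatidic acid, and F2rl3, the thrombin receptor PAR4, had means of 918 and 709 units, and the sphingosine 1-phosphate receptor S1pr1 was detected on no array. The 3 beta-adrenergic receptors, at which propranolol acts, matched no named probe and were not analysed here. Of 2 measured alpha-adrenergic receptors, Adra2c was detected at 107, 91.3 and 107 units with 1 of its 3 probes and Adra1b was detected on no array. Genes that couple such receptors to cyclic AMP were detected in 16 of 33 measured (48.5%), a share near the 44.2% of all named genes. Prkacb and Prkaca, catalytic subunits of protein kinase A, had means of 3488 and 1849 units, and Prkar1a, a regulatory subunit, had 2783, 2352 and 3034 units. The G protein subunits Gnb2, Gnb1 and Gnai2 had means of 3005, 2842 and 1748 units. Th and Dbh, the enzymes that make noradrenaline, were detected on no array. Of 25 nuclear receptors, 9 were detected, led by Nr2f6 at 591, 476 and 618 units and Rxrb at 585, 449.8 and 567 units, while the glucocorticoid receptor Nr3c1 and the estrogen receptors Esr1 and Esr2 were detected on no array.

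**Figure D3:**
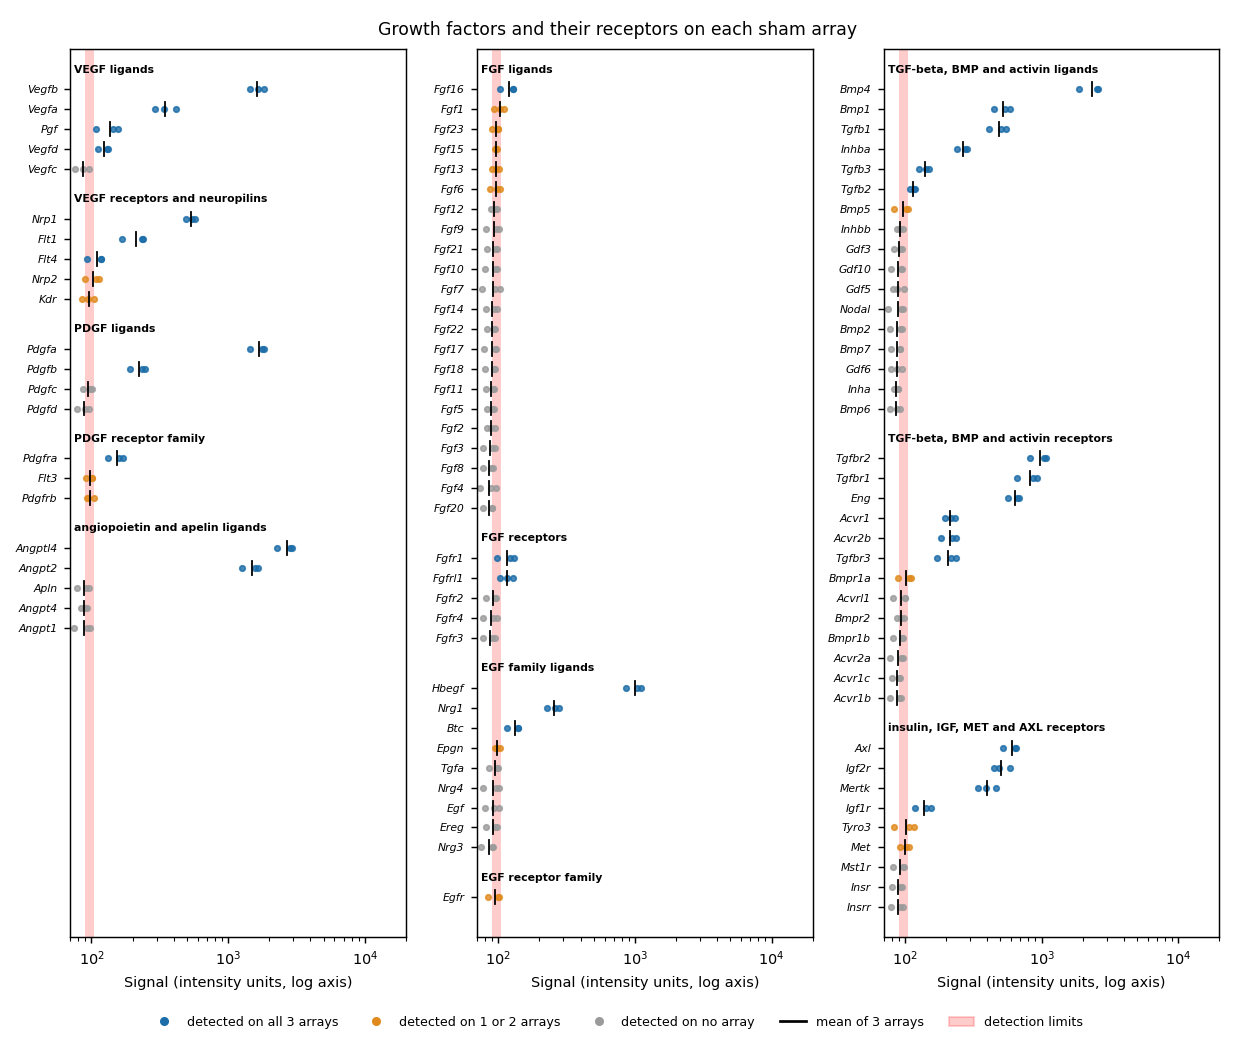
Points are the signals of growth factor and receptor genes on each of the 3 sham arrays (horizontal log axis, intensity units), bars are means of the 3 arrays, and the pale band spans the detection limits. Vegfb, Pdgfa, Angpt2, Angptl4, Hbegf and Bmp4 lie far above the band, while most FGF genes, Egfr, Pdgfrb and Kdr have their means on it.

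Genes of the Ras pathway were detected in 85 of 118 measured (72.0%, beside 44.2% of all named genes). Of the 118, 55 reached 2 times the limit (46.6%, beside 26.5%). Nras, the Ras gene with the brightest probe among those measured, had 4799, 3738 and 5372 units. Rheb, the small GTPase that activates mTOR, and Rap1b, which strengthens cell junctions, had means of 2556 and 2044 units. Ralb, Rras and Rit1, further relatives of Ras, had means of 835, 819 and 791 units. Thus 13 of 15 measured members of this group were detected, and 2 listed members matched no named probe and were not analysed here. Rap1a and Rit2 were detected on no array. An array that reads mouse transcripts need not report the introduced Ras or large T sequences, and neither was analysed here.

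Between receptors and Ras, 8 of 16 adaptors and exchange factors were detected, which is near the 44.2% of all named genes. Shc1, an adaptor, had 3163, 2516 and 3496 units, Crk, another adaptor, had 2303, 1757 and 2419 units, and Ptpn11, the phosphatase SHP2 that promotes Ras signalling, had 2187, 1647 and 2084 units. All 3 were at 18 or more times the limit on every array. Rapgef1, an exchange factor for Rap1, had 741, 566 and 799 units with 1 of its 4 probes, and Rasgrp3, an exchange factor of endothelium, had 214, 166 and 191 units. Sos1, the widely used Ras exchange factor, was at 93.6, 81.6 and 102 units and was detected on no array. Of the GTPase activating proteins that switch Ras off, Rasa1 had 799, 659 and 884 units, Dab2ip and Rasa2 had means of 386 and 257 units, and Nf1, neurofibromin, had 119.9, 112 and 118 units. These 4 were detected of 6 measured. The enzymes that attach Ras to membranes were detected in 8 of 10. Fnta and Fntb, the subunits of farnesyltransferase, had 2639, 2092 and 2586 and 1173, 927 and 1251 units. Rce1 and Icmt, which finish the modified end of Ras, had means of 647 and 315 units, and Pde6d, a carrier of farnesylated Ras, had 954 units.

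Downstream of Ras, Map2k2, the ERK kinase MEK2, had 2468, 2343 and 2647 units, and both of its probes were detected. Map2k1, which encodes MEK1, was at 101, 88.8 and 102 units and was detected on no array. The RAF kinase Araf had 520.3, 385 and 551 units, and Iqgap1, a scaffold of the cascade, had 999, 898 and 975 units. Mknk2, Mknk1 and Pebp1, kinases that ERK activates and an inhibitor of RAF, had means of 595, 298 and 423 units. In the PI3K branch 11 of 16 genes were detected (68.8%, beside 44.2% of all named genes). Of the 16, 6 reached 2 times the limit (37.5%, beside 26.5%). Tsc2, an inhibitor of mTOR, had 1001, 769.8 and 1053 units, and Mlst8, a subunit of mTOR complexes, had 728, 572 and 711 units. The lipid kinase subunit Pik3cb and the kinase Pdpk1 had means of 422 and 372 units. Akt1, the kinase at the centre of this branch, was at 101, 90.1 and 98.5 units and was detected on 1 array, and Akt2 was detected on none. Among other effectors, Rassf1 had 2171, 1788 and 2203 units, and Rgl2, Rin1 and Tiam1, which act on other small GTPases, had means of 967, 675 and 667 units.

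Transcripts that ERK induces were detected in 16 of 18 measured genes (88.9%, beside 44.2% of all named genes). Of the 18, 9 reached 2 times the limit (50.0%, beside 26.5%). Ccnd1, the cyclin D1 that drives entry into the cell cycle, had 9765, 7636 and 10566 units, held brightness rank 72 among all named genes and was detected with all 3 probes. Ier3 and Egr1, early response genes, had 2819, 2025 and 3120.0 and 2793, 2097 and 2808 units. Phlda1 had 1725, 1297 and 1892 units, Fosl1, an AP-1 subunit, had 1125, 931 and 1266 units, and Etv4, an ETS factor, had 554, 470.5 and 612 units. The early response gene Ier2 was at 95.1, 82.9 and 96.5 units and was detected on no array, and Myc was at 165, 148 and 191 units with 1 of its 2 probes. Probes for phosphatases that ERK can induce and that can act back on the pathway were detected as well. The arrays read transcripts and not the activity of ERK. Dusp1, a nuclear phosphatase of MAP kinases, had 2300.2, 1934 and 2336 units, Dusp6, which is specific to ERK, had 1485, 1178 and 1589 units, and Dusp7 had 1429, 1177 and 1493 units. Dusp4 and Dusp2 had means of 671 and 487 units, and Spred1, an inhibitor of RAF activation, had 742, 515 and 727 units. The inhibitors Spry1 and Spry2 were detected on no array.

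**Figure D4:**
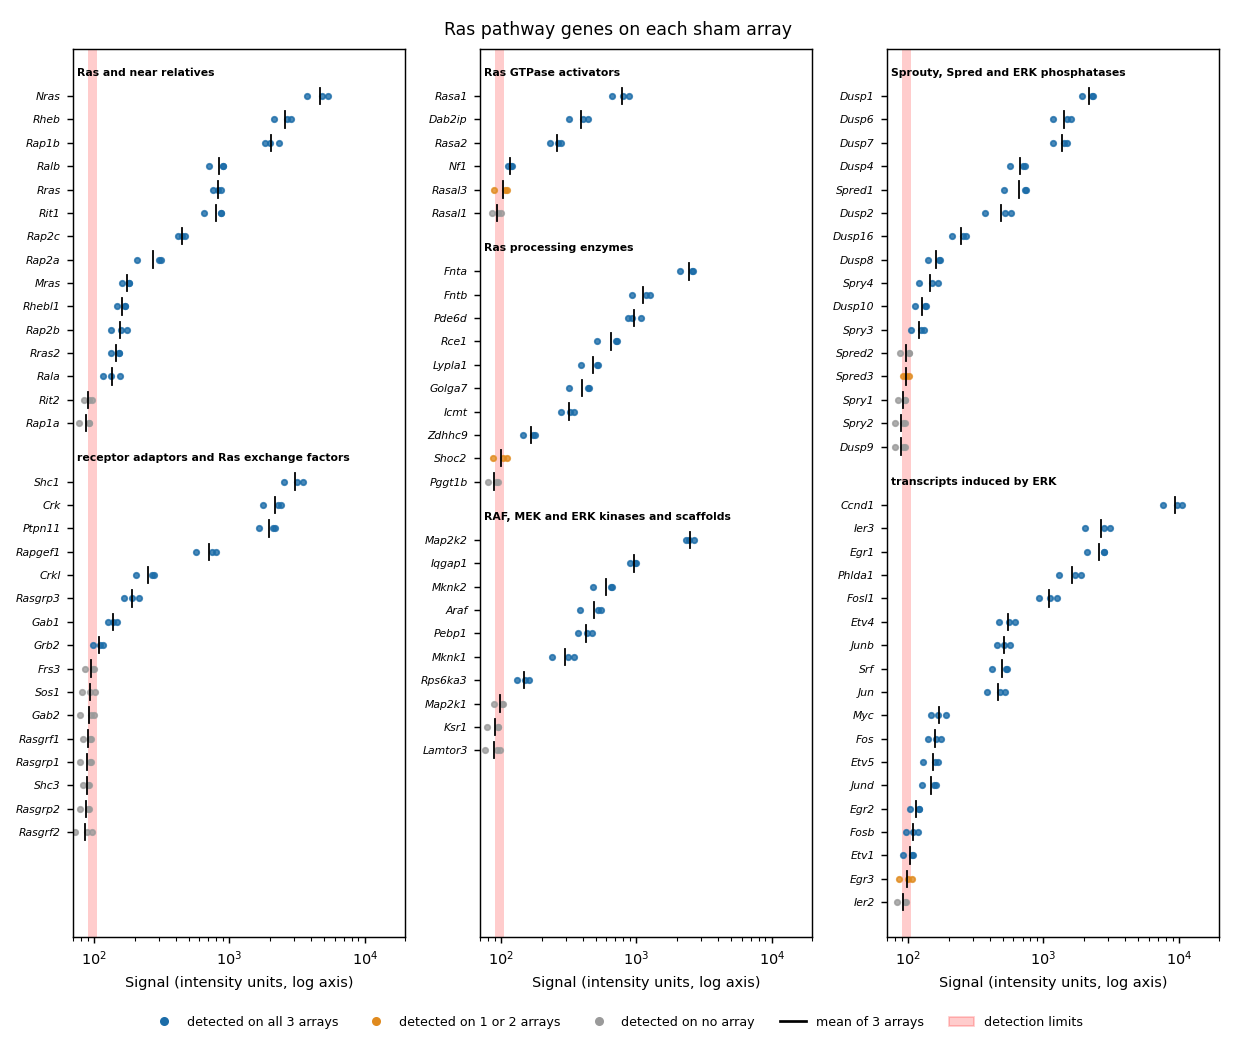
Points are the signals of Ras pathway genes on each of the 3 sham arrays (horizontal log axis, intensity units), bars are means of the 3 arrays, and the pale band spans the detection limits. Ccnd1, Nras, Shc1 and Ier3 are the brightest in the plot, and Map2k1, Sos1, Spry1 and Spry2 lie on the band or below it.

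Genes of proliferation were detected in these confluent cells. Of 19 genes of DNA replication and mitosis 16 were detected (84.2%, beside 44.2% of all named genes) and 15 reached 2 times the limit (78.9%, beside 26.5%). Mcm5 and Mcm4, subunits of the replicative helicase, had 3903, 2986 and 4258 and 3970.1, 3066 and 4107 units. Cdc20, an activator of the mitotic ubiquitin ligase, and Birc5, survivin, had means of 3098 and 2899.8 units, while Bub1 and Ccnb2, both mitotic genes, were detected on no array. Of 26 genes of the RB pathway and of cell cycle inhibitors 23 were detected (88.5%). Mdm2, a ubiquitin ligase, had 2723, 2076 and 2831 units, and Cdkn1a, the inhibitor p21, had 2593, 2005 and 2575 units. Cdkn2a, which encodes p16 and p19Arf, had 455, 359 and 482 units with 1 of its 2 probes. Among genes of the basement membrane, Col4a1 and Col4a2, its collagen chains, had 6442, 4709.8 and 6555 and 3461, 2776 and 3504 units. Sparc, a collagen-binding matrix protein, had 7499.6, 5735 and 7008 units, and Hspg2 (perlecan) and Lamc1, a laminin chain, had means of 1401 and 1015 units. Of 18 integrins 9 were detected (50.0%), a share near the 44.2% of all named genes. Itga3 had 1624, 1291 and 1645 units and Itgb1 had 343, 322 and 357 units, and Itga2 and Itga4 were detected on no array.

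The share of genes detected rose with the CpG content of the promoter. A window of 300 bases, 250 before and 50 after the RefSeq start, was read for the 13334 named genes that had an entry, and CpG content was taken as the observed number over that expected from the C and G of the window. Of 2588 genes with a ratio under 0.2, 10.2% were detected, and of 2976 genes with a ratio from 0.8 to 1.0, 68.5% were detected. A ratio of 0.6 or more was held by 76.6% of the 6038 detected genes and 30.7% of the 6222 genes detected on no array. Of the detected genes of the endothelial lists 42.2% of 45 held such a ratio, and of those detected on no array 44.4% of 18. For the Ras pathway lists these shares were 78.9% of 71 detected genes and 100.0% of 15 genes detected on no array. The rise over all genes was thus not seen within the endothelial and Ras pathway lists, nor in the ligand lists (50.0% of 40 detected genes and 51.4% of 74 on no array). In the receptor lists such a ratio was more frequent among detected genes, at 62.1% of 58, than among those on no array, at 46.8% of 77. The ratio was 0.15 for Tek, 0.20 for Selp, 0.69 for Kdr, 0.78 for Flt1 and 0.97 for Nras. The hexamer CGGAAG, the core of many ETS sites, was searched on both strands and stood in 34.5% of the windows of detected genes, 12.4% of those of genes detected on no array and 22.9% of all windows. The hexamer TATAAA was found in 4.6%, 12.4% and 8.4% of these windows. CGGAAG holds a CpG itself, and its share rose with the CpG ratio, from 2.2% of windows under 0.2 to 41.6% of those at 1.0 or more. Its difference by detection was not separated from that of CpG content. These shares describe letters in the windows across genes, which are not independent replicates, and no factor was measured.

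The 3 arrays agreed closely. Their signals correlated across all probes, on the log2 scale, at r = 0.9975 to 0.9979, and each pair gave the same detection call for 94.1% to 94.6% of probes. Signals of a gene varied with a median coefficient of variation of 12.6% as deposited, and of 4.45% after the arrays were scaled to equal means. The scaling raised replicate 2 and lowered the other arrays. The detected gene with the largest scaled variation was Rps3a1, a ribosomal protein, at 969, 511 and 589 units and 29.3%. Next were Ptpre, a tyrosine phosphatase, at 3883, 1963 and 3050.2 units, and Bst2, an antiviral membrane protein, at 613, 388 and 397 units. Both differed by more than the median gene while staying above the limit on every array.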

How the data were processed

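RNA of SVR cells was read on Illumina mouse bead arrays, and the 3 arrays labelled sham, 0 h were used. The authors combined the RNA of 3 biological replicates, amplified it with biotin label and hybridized the product. For the program that extracted the signals, a name was not given in the sources used here. Values were taken from the deposited intensity of each probe without normalization, beside which stand a detection p-value, in 798 steps set by the negative control beads, and the standard error and number of beads (median 37 to 39 beads per probe). In a further deposited table the authors multiplied every array by its own constant, and the series matrix repeats those numbers. Columns left without a sample numbered 0.

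Of 25697 probes, 23978 have a single gene symbol by the platform annotation, while 1719 have no symbol. Names of 23962 probes were looked up by gene number. A gene was detected where at least 1 probe had a detection p under 0.05 on all 3 arrays, and its values are those of its brightest probe. Gene lists (61 lists of 876 genes, of which 103 matched no named probe and were not analysed here) were written from textbook knowledge. The members, the lists and their order were chosen with earlier results of these data known. The genes named were drawn, without naming every one, from the 5 defining markers, the 30 brightest, members of lists with 12 or fewer genes, the 6 brightest detected and the undetected members of longer lists, members whose probes or arrays disagree, and the 10 most variable detected genes. No test was run, since the sham arrays were compared with no other group. The detection step was tested on simulated data in which expressed probes were set far above the background, so it says nothing of calls near the limit. Alternatives were a detection p under 0.01, fewer arrays, every probe of a gene, the mean of probes, the names as annotated, the authors' normalized table, scaling to the mean or the 75th percentile, neqc (limma 3.58.1 in R 4.3.3, offset 16) and leaving out each array. A signal of at least 2 times the limit was added after the data were seen. Promoters came from RefSeq (GRCm38.p6), with the first start used for the 2349 genes that have several. Python 3.11.15, pandas 2.3.3 and matplotlib 3.10.9 were used.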

Additional observations from a re-analysis of the deposited data

How the results depend on the processing

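The distance from the detection limit moved the counts most. With a signal of at least 2 times the limit, an alternative chosen after the data were seen, 4402 named genes in place of 7327 were called, with 44 endothelial genes in place of 69, 30 ligands in place of 57, 27 receptors in place of 67, 55 Ras pathway genes in place of 85 and 2 genes of other cell types in place of 11. Detection on at least 1 array called 101 receptors and 21 genes of other cell types, detection on at least 2 arrays called 17 of the latter, and a detection p under 0.01 called 6. With every probe of a gene required, these 6 counts stayed within 1.5 times of their values, while 11 of 60 single lists moved further. Leaving out any 1 array gave 7433 to 7570 named genes. Without sham replicate 1 the detected members of the FGF, PDGF receptor, Eph receptor and smooth muscle lists numbered 2, 2, 4 and 4 in place of 1, 1, 2 and 2, and without replicate 2 those of the islet list numbered 2 in place of 1. The median coefficient of variation of 12.6% became 4.45% in the authors' normalized table and 6.35% with neqc. The 100 brightest genes shared all 100 members with neqc, the normalized table and the 75th percentile scaling, 99 without any 1 array, and 85 where all probes of a gene were averaged. Of 2905 detected genes with several probes, 1166 had a probe detected on no array, so a call of not detected may rest on the probe. The cause was not tested. No paired analysis was possible because the result comes from no test.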

Other observations

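Of the 100 brightest probes, 15 carried no gene name in the annotation and enter no count of genes, and 605 of the 1719 unnamed probes were detected on all 3 sham arrays. Among 4 measured genes of the sex chromosomes, Xist, the transcript that coats the inactive X, had 239, 191 and 241 units, and the Y-linked Uty had 107, 91.7 and 118 units, while the Y-linked genes Kdm5d and Eif2s3y were detected on no array. Both proliferin genes measured belong to the prolactin family, and Prl2c3 was detected at 146, 120.4 and 141 units, while Prl2c5 was detected on no array.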
